A study of Homo sapiens with 9 samples.

Results

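Glycolytic kinases are the enzymes of glycolysis that move a phosphate group between ATP and a sugar or 3-carbon intermediate. In a pooled kinome knockout screen in RH4 cells, 9 of the 763 targeted genes belonged to this set. The members are listed by name, and the set was picked with earlier results of these data known. They covered 4 steps of the pathway, with HK1, HK2 and HK3 for hexokinase, PFKL, PFKM and PFKP for phosphofructokinase, PGK1 for phosphoglycerate kinase, and PKM and PKLR for pyruvate kinase. Each gene was targeted by 4 single guide RNAs (sgRNAs), so the set held 36 of 3152 sgRNAs, and all 36 passed the minimum mean of 30 reads over the 9 libraries. PFKL sgRNA 908 passed only through its pralatrexate libraries, as its mean over baseline and vehicle libraries was below 30.

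RH4 is 1 human rhabdomyosarcoma line that carries the PAX3::FOXO1 fusion, and all cells here also carried the Brunello kinome library, whose lentiviral vectors deliver Cas9 together with an sgRNA. Infection kept 1000 cells per sgRNA, and puromycin at 0.25 µg/ml was present for 72 h, starting 48 h later. The 3 groups, each of 3 libraries, were baseline cells taken after selection, vehicle-treated cells at day 10, and cells at day 10 of pralatrexate at 1.5 nM, an antifolate that blocks dihydrofolate reductase. Cells of both day 10 groups recovered for 72 h between selection and treatment and were then passaged every 4 days. Reads of the integrated sgRNA cassette were counted, and they track how large a part of the population holds that sgRNA. No RNA or protein was measured, and which of these isozymes the cells express was not tested.

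Hexokinases trap glucose in the cell by phosphorylating it, phosphofructokinase commits it to glycolysis, and phosphoglycerate kinase and pyruvate kinase return ATP. Most steps have several isozymes from separate genes with different tissue patterns, so loss of one gene can leave the reaction to another. PGK1 is the main phosphoglycerate kinase of somatic cells, while its relative PGK2 is a testis gene. PKM encodes the pyruvate kinases of muscle, embryonic and many cancer cells, while PKLR encodes those of liver and red blood cells.

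Library totals ran from 2468136 to 4602712 reads. The 36 sgRNAs took 1.15 to 1.21% of the reads of baseline libraries, 0.932 to 0.969% with vehicle and 0.932 to 0.978% with pralatrexate. The 99 non-targeting sgRNAs, which cut no gene, stood at a median log2 fold change of 0.31 in vehicle against baseline, with a range of -0.05 to 0.67, while all targeting sgRNAs had a median of 0.01. A gene at a log2 fold change of 0 therefore lay below most uncut controls in that comparison. The labels call the libraries of a group repeats, while the study speaks of parallel cultures in one place and of technical replicates in another. The p-values therefore cover the spread among these libraries, which may be technical. Read counts carried no molecular identifiers, so errors from counting alone would be too small.

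Vehicle at day 10 against baseline asked for which of these kinases the sgRNAs became rarer or more common in RH4 cells without drug. PGK1, PKM and HK2 were depleted, 1 gene each of the phosphoglycerate kinase, pyruvate kinase and hexokinase steps. The other 6 genes, among them every phosphofructokinase, were not called in either direction. The call was a false discovery rate (FDR) under 0.05 over all 763 genes, from a rank aggregation of the sgRNAs of a gene. So 3 of 9 were depleted and none enriched, where 7.47% of all genes were depleted and 0.524% enriched. At an unadjusted p under 0.05 the set had 4 depleted and 0 enriched genes, and all genes had 115 and 60. The median log2 fold change was -0.19 over the 9 genes and 0.02 over all genes.

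Groups of libraries that did not overlap were much more common than calls. Gene levels, the mean log2 CPM (counts scaled to library size) of the 4 sgRNAs, lay lower in all vehicle libraries than in all baseline libraries for 5 of the 9 genes and higher for 1. Over all genes, 24.4% were lower and 19.5% higher in that sense. A level also carries the share that each sgRNA had in the library from the start, so levels of different genes at baseline do not rank the genes.

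**Figure D1:**
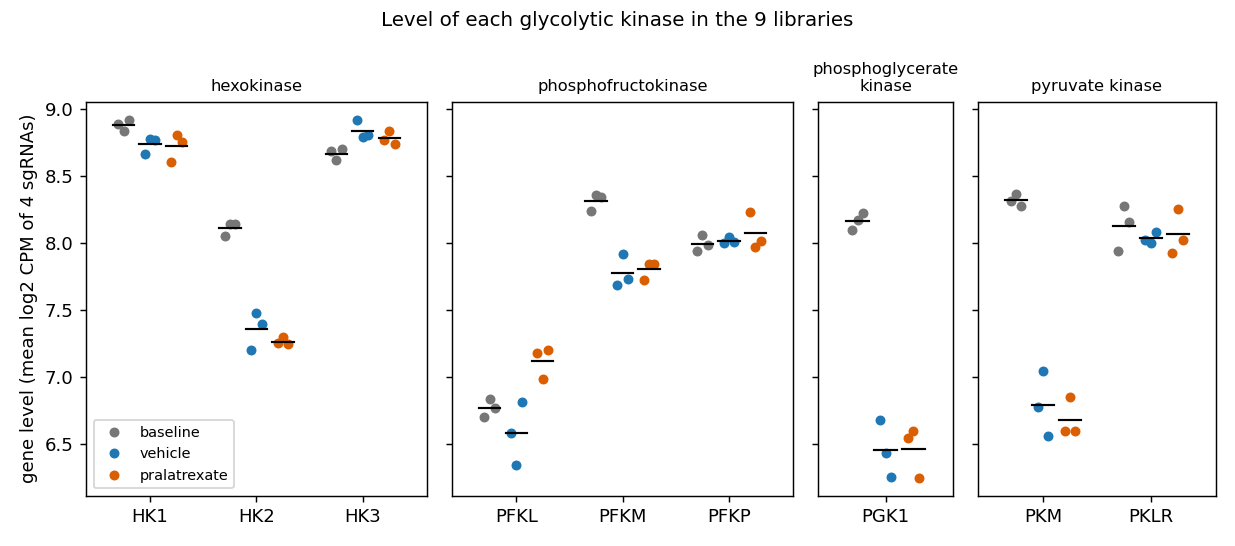
Gene level (mean log2 CPM of 4 sgRNAs, vertical axis) of the 9 glycolytic kinases, in panels by step, with a point for each of 3 baseline, 3 vehicle and 3 pralatrexate libraries and a black line for each mean. PGK1 and PKM drop from baseline means of 8.16 and 8.32 to day 10 means of 6.46 to 6.79, HK2 and PFKM lie lower by less, and the other 5 stay within 0.4 of baseline.

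Single sgRNAs gave a finer view of the same comparison. Of the 36, 15 were lower and 1 was higher at an FDR under 0.05 over all 3145 sgRNAs tested, where 12.8% of all sgRNAs were lower and 6.26% higher. The 15 were 4 of PGK1, 4 of PKM, 3 of HK2, 3 of PFKM and 1 of HK1, and the single higher one belonged to HK3. None of the sgRNAs of PFKL, PFKP or PKLR was called.

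**Figure D2:**
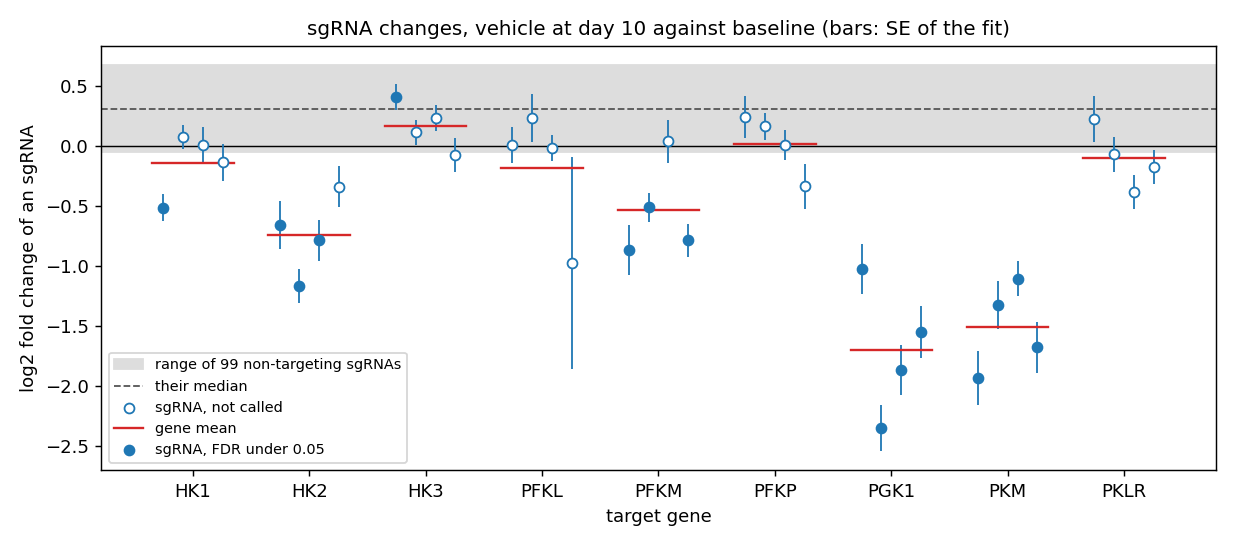
Log2 fold change of each of the 36 sgRNAs in vehicle at day 10 against baseline (vertical axis), by target gene, with the SE of the fit as bars, filled points at an FDR under 0.05, red lines for gene means and a grey band for the range of 99 non-targeting sgRNAs. The sgRNAs of HK2, PGK1 and PKM all lie below the grey band, which runs from -0.05 to 0.67. So do some sgRNAs of other genes, among them PFKM at -0.86, -0.51 and -0.78, PKLR at -0.38 and PFKP at -0.34.

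HK2 (chromosome 2, 74834127 to 74893359 on GRCh38, plus strand) encodes the hexokinase that many tumours use, bound to the outer mitochondrial membrane. Its level was 8.05, 8.14 and 8.14 in the baseline libraries, 7.20, 7.48 and 7.40 with vehicle, and 7.25, 7.30 and 7.24 with pralatrexate. All 6 day 10 libraries lay below all 3 baseline libraries. With vehicle HK2 fell by 0.74 on the log2 scale, to 60.0% of baseline (FDR 0.0386). The SD over its sgRNAs was 0.34, and these 4 stood at 63.4, 44.5, 57.9 and 79.0% of baseline. None of the non-targeting sgRNAs was lower than any of these 4. The same held for sgRNAs of genes that were not called, such as PFKM sgRNA 909 at 54.9% and PKLR sgRNA 1010 at 95.5% of baseline. The HK2 call rested on a narrow margin. Without baseline 2, vehicle 1 or vehicle 2 the FDR was 0.116, 0.104 or 0.0637, with values of -0.72, -0.67 and -0.81. Without its strongest sgRNA it was -0.59 (FDR 0.137), and with scaling on the non-targeting sgRNAs -1.07 (FDR 0.0885).

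HK1 (chromosome 10, 69269984 to 69401884, plus strand) is the hexokinase found in most tissues. Its level was 8.89, 8.84 and 8.92 at baseline and 8.66, 8.77 and 8.77 with vehicle, so the groups did not overlap. The log2 fold change was -0.14 ± 0.26 (SD, 4 sgRNAs; FDR 1), and 1 of its sgRNAs, number 569 of the library, carried most of it, at 70.1% of baseline (FDR 8.95e-04). The other 3 sgRNAs stood at 106, 100 and 90.9% of baseline.

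HK3 (chromosome 5, 176880869 to 176899346, minus strand, in a span that overlaps UNC5A) is expressed mainly in white blood cells. Its level was 8.68, 8.62 and 8.70 at baseline and 8.92, 8.79 and 8.80 with vehicle, higher in every vehicle library. The log2 fold change was 0.17 ± 0.20 (SD, 4 sgRNAs; enrichment FDR 0.907), and -0.16 with scaling on the non-targeting sgRNAs. Its highest sgRNA, number 577, stood at 133% of baseline (FDR 0.00543), and 80 of the 99 non-targeting sgRNAs had a lower value.

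The gene levels of the 3 hexokinases changed by different amounts between baseline and day 10. HK1 minus HK2 went from 0.77 ± 0.07 in baseline libraries to 1.38 ± 0.08 under vehicle and 1.46 ± 0.09 under pralatrexate (SD over 3 libraries), a widening of 0.64 ± 0.06 (SE) between baseline and day 10. HK2 minus HK3 moved from -0.56 ± 0.08 to -1.48 ± 0.21 and -1.52 ± 0.02. HK1 minus HK3 moved by -0.30 ± 0.04 (SE), from 0.21 ± 0.01 to -0.10 ± 0.13 and -0.06 ± 0.09. Each of these 3 changes had a p of 0.0238 in a two-sided exact permutation test of 6 day 10 against 3 baseline libraries, the smallest value that test can give. Over all 8 isozyme pairs compared in this way, the Benjamini-Hochberg adjusted value was 0.0317 for each. A difference within 1 library changes little with how that library is scaled. The 3 pairs share genes and are not independent. Here and for the other pairs the test covers the spread among libraries, not the spread among the sgRNAs of a gene. HK1 and HK3 were not called. Without the strongest sgRNA of each they stood at -0.02 and 0.09 in vehicle against baseline.

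Other enzymes of this kind were in the library as well. HKDC1, a hexokinase-like gene, stood at -0.11 ± 0.21 in vehicle against baseline (SD, 4 sgRNAs). ADPGK, which uses ADP in place of ATP, stood at 0.06 ± 0.23. Neither was called.

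Phosphofructokinase works as a tetramer of PFKL (liver type), PFKM (muscle type) and PFKP (platelet type) subunits, which can mix. PFKM (chromosome 12, 48105139 to 48146404, plus strand, overlapping SENP1) had levels of 8.24, 8.36 and 8.34 at baseline, 7.68, 7.92 and 7.73 with vehicle, and 7.72, 7.85 and 7.85 with pralatrexate. Every day 10 library lay below every baseline library. The log2 fold change with vehicle was -0.53 ± 0.41 (SD, 4 sgRNAs), or 69.3% of baseline, and missed the threshold (FDR 0.0775, unadjusted p = 0.00671). Its sgRNAs 909, 910 and 912 stood at 54.9, 70.2 and 58.0% of baseline, each lower at an FDR under 0.05, while sgRNA 911 stood at 103%. The call depended on how sgRNAs were combined. A limma fit of gene means gave -0.54 (adjusted p = 2.46e-05), and an edgeR fit of summed reads gave -0.53 (adjusted p = 4.49e-08).

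PFKP (chromosome 10, 3066333 to 3137718, plus strand) had levels of 7.94, 8.06 and 7.98 at baseline and 7.997, 8.04 and 8.01 with vehicle, and the groups overlapped. Its log2 fold change was 0.02 ± 0.26 (SD, 4 sgRNAs; FDR 1 in both directions), and -0.31 with scaling on the non-targeting sgRNAs. Its sgRNAs ranged from 79.2 to 118% of baseline.

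PFKL (chromosome 21, 44300051 to 44327376, plus strand) had levels of 6.70, 6.84 and 6.77 at baseline and 6.58, 6.35 and 6.81 with vehicle. The groups overlapped, and vehicle libraries spread over more than baseline libraries. The log2 fold change was -0.19 ± 0.54 (SD, 4 sgRNAs; FDR 1). Of its sgRNAs, 3 stood at 101, 118 and 98.9% of baseline, and the other, number 908, was rare from the start, with 21, 42 and 20 reads at baseline and 10, 7 and 26 with vehicle. Without sgRNA 908 the gene stood at 0.08.

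Within this step PFKM parted from PFKP. PFKM minus PFKP moved from 0.32 ± 0.03 at baseline to -0.24 ± 0.10 with vehicle and -0.27 ± 0.21 with pralatrexate (SD, n = 3 libraries each), a change of -0.57 ± 0.06 (SE; exact permutation p = 0.0238, adjusted 0.0317). PFKL minus PFKM changed by 0.60 ± 0.15 (SE) and PFKL minus PFKP by 0.03 ± 0.13 (SE), both with overlapping libraries. Neither passed. Both pairs carry sgRNA 908, which the minimum kept through its pralatrexate libraries, so no p is given and the values are a description only. PFKL minus PFKP changed by -0.21 for vehicle alone and 0.27 for pralatrexate alone. For PFKL minus PFKM these were 0.35 and 0.86. The enzymes that make or break fructose 2,6-bisphosphate, the main activator of phosphofructokinase, ranged from -0.43 for PFKFB3 to 0.15 for PFKFB1, and none of the 4 was called.

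PGK1 (chromosome X, 77910739 to 78129295, plus strand, in a span that also holds PGAM4 and overlaps ATP7A) catalyses the first ATP-yielding step of glycolysis. Its level was 8.10, 8.17 and 8.22 in the baseline libraries, 6.68, 6.43 and 6.25 with vehicle, and 6.54, 6.60 and 6.25 with pralatrexate. The lowest baseline library lay more than 1.4 above the highest day 10 library. With vehicle PGK1 fell by 1.70 on the log2 scale, to 30.9% of baseline (FDR 0.00221), with an SD of 0.55 over its sgRNAs. This was the largest decrease of the 9 genes and number 16 from the lowest among all 763. Its sgRNAs stood at 49.1, 19.7, 27.5 and 34.3% of baseline, and leaving out any 1 of the 6 libraries gave values from -1.81 to -1.60, called each time.

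PGK2, the testis relative, stood at 0.04 ± 0.24 (SD, 4 sgRNAs) and was not called. PGK1 minus PGK2 moved from 0.54 ± 0.10 at baseline to -1.21 ± 0.17 with vehicle and -1.24 ± 0.33 with pralatrexate (SD, n = 3 libraries each). The change of -1.76 ± 0.11 (SE) was the largest of the 8 pairs (exact permutation p = 0.0238, adjusted 0.0317).

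PKM (chromosome 15, 72199029 to 72231819, minus strand) catalyses the last step, from phosphoenolpyruvate to pyruvate. Its level was 8.31, 8.36 and 8.27 at baseline, 6.78, 7.04 and 6.56 with vehicle, and 6.59, 6.85 and 6.59 with pralatrexate, with no overlap between baseline and day 10. With vehicle PKM fell by 1.51, to 35.2% of baseline (SD over sgRNAs 0.37; FDR 0.00198). Its sgRNAs stood at 26.2, 40.0, 46.4 and 31.3% of baseline, a narrower spread than those of PGK1. Leaving out any 1 of the 6 libraries gave log2 fold changes from -1.64 to -1.40, each called.

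PKLR (chromosome 1, 155289293 to 155301438, minus strand, overlapping HCN3) had levels of 7.94, 8.28 and 8.16 at baseline and 8.02, 7.997 and 8.08 with vehicle. The groups overlapped, and the log2 fold change was -0.10 ± 0.25 (SD, 4 sgRNAs; FDR 1). PKM minus PKLR moved from 0.19 ± 0.16 at baseline to -1.24 ± 0.28 with vehicle and -1.39 ± 0.05 with pralatrexate (SD, n = 3 libraries each), a change of -1.51 ± 0.12 (SE; exact permutation p = 0.0238, adjusted 0.0317).

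**Figure D3:**
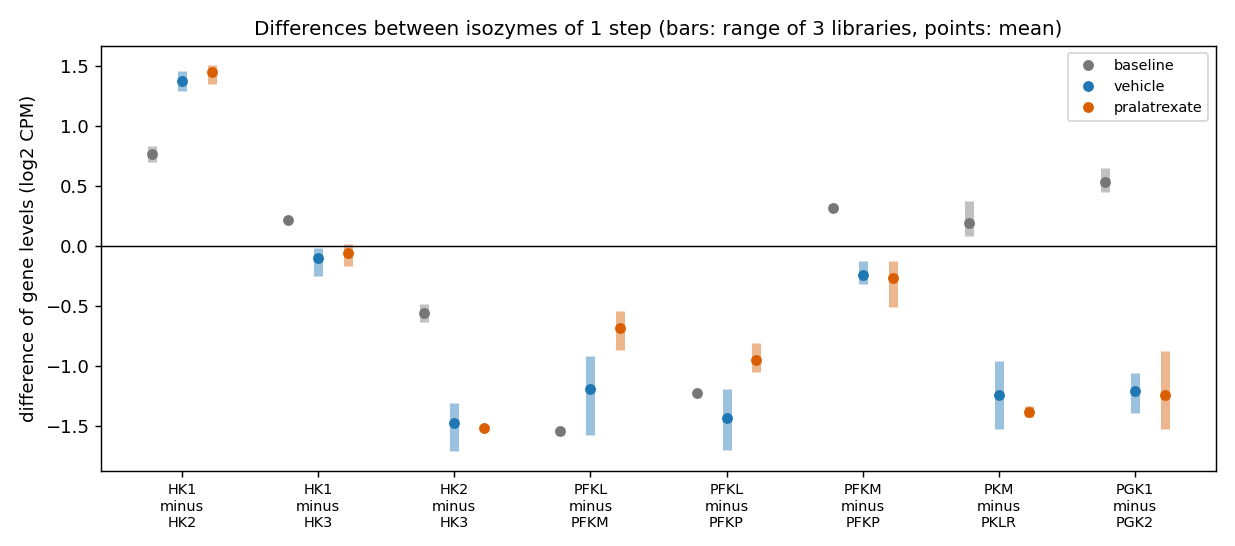
Difference of gene levels (log2 CPM, vertical axis) between isozymes of 1 step for 8 pairs, with points for the mean and bars for the range of 3 baseline, 3 vehicle and 3 pralatrexate libraries. PGK1 minus PGK2 and PKM minus PKLR change most, by -1.76 and -1.51, the vehicle and pralatrexate means of the pairs without PFKL lie within 0.15 of each other, and the 2 pairs with PFKL overlap between baseline and day 10.

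These pair tests took the 6 day 10 libraries together. With 3 vehicle or 3 pralatrexate libraries alone against 3 baseline libraries the smallest p an exact test can give is 0.1, so neither arm alone could pass. Same-numbered vehicle and pralatrexate libraries deviated together, so the 6 may not be independent. Taken as 3 sets against 3 baseline libraries they would also allow no p below 0.1, and no pair could then pass. Each of the 6 pairs that passed kept its direction in both arms, without overlap with baseline. Lack of overlap was common among single genes, with 24.4% lower and 19.5% higher under vehicle, and 25.6 and 20.3% under pralatrexate. How often other pairs of genes part in this way was not tested.

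Pralatrexate against vehicle asked whether loss of a glycolytic kinase changed how cells fared under the antifolate. None of the 9 genes was called in either direction by edgeR with rank aggregation, and none had an unadjusted p under 0.05. Over all genes 0.655% were depleted and 0% enriched, or 30 and 41 genes at an unadjusted p under 0.05. The 3 genes depleted with vehicle stood at -0.11 ± 0.09 for HK2, -0.01 ± 0.42 for PGK1 and -0.13 ± 0.16 for PKM (SD, 4 sgRNAs each). HK1, HK3, PFKM, PFKP and PKLR stood between -0.06 and 0.07.

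PFKL stood at 0.56 ± 1.12 (SD, 4 sgRNAs; enrichment FDR 0.963, unadjusted p = 0.0579). Its level was 7.18, 6.98 and 7.20 with pralatrexate, above all 3 vehicle libraries. No other member had groups without overlap, where over all genes 3.41% were lower and 3.67% higher in that sense. Both the value and the lack of overlap came from sgRNA 908, which the minimum kept through the group where it is high, so they are given as a description only. It had 48, 38 and 91 reads under pralatrexate against 10, 7 and 26 with vehicle, a log2 fold change of 2.23 ± 0.84 (SE; FDR 0.820). Its other 3 sgRNAs stood at -0.09, -0.06 and 0.14, and without sgRNA 908 the gene stood at 0.00. Without pralatrexate 3, where the minimum mean of 30 reads removes sgRNA 908, PFKL stood at 0.02, and without vehicle 3 at 0.74. A limma fit of gene means called it (0.54, adjusted p = 0.00978), and an edgeR fit of summed reads, in which a rare sgRNA weighs little, did not (0.07, adjusted p = 0.906).

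At the level of sgRNAs none of the 36 was called in this comparison, where 0.0318% of all sgRNAs were lower and 0% higher. Apart from PFKL sgRNA 908, they ranged from -0.52 to 0.47, while the 99 non-targeting sgRNAs ranged from -0.43 to 0.48. Both ends of that range were sgRNAs of PGK1. PGK1 sgRNA 922 went from 19.7% of baseline with vehicle to 13.8% with pralatrexate, whereas sgRNA 921 went from 49.1 to 68.0%. These moved in opposite directions, and neither passed the threshold, with FDR values of 0.806 and 0.857.

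**Figure D4:**
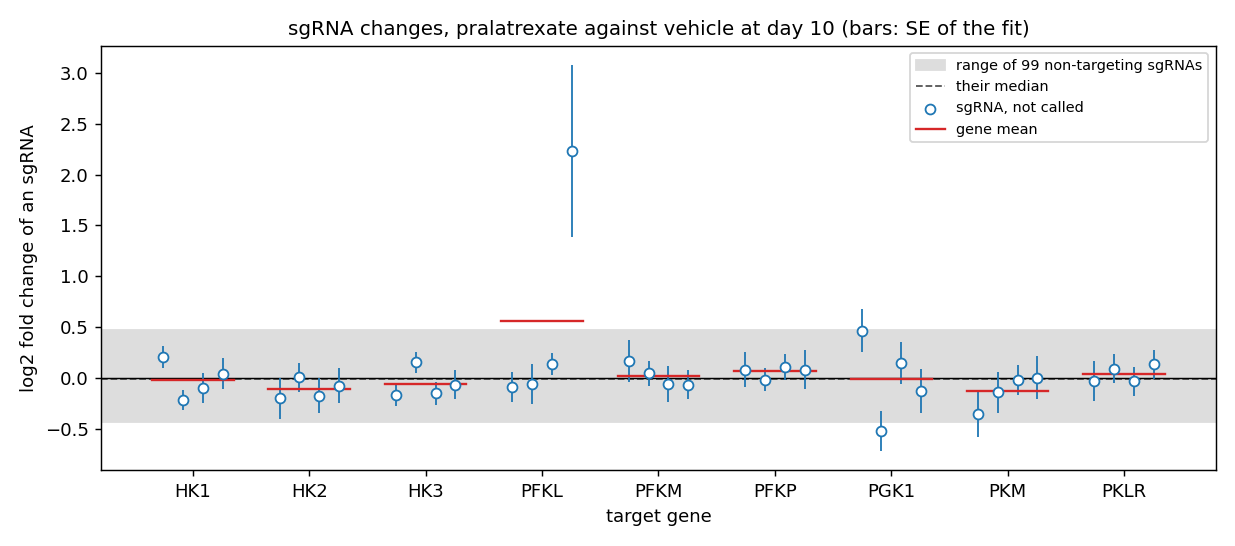
Log2 fold change of each of the 36 sgRNAs in pralatrexate against vehicle at day 10 (vertical axis), by target gene, with the SE of the fit as bars, red lines for gene means and a grey band for the range of 99 non-targeting sgRNAs. All points are open, as none was called, and PFKL sgRNA 908, at 2.23 with an SE of 0.84, stands apart from the other 35.

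The isozyme differences under pralatrexate and vehicle were also compared. For the 6 pairs without PFKL the change from vehicle to pralatrexate ran from -0.15 to 0.08. The exact permutation p was 0.3 to 1 for these pairs, where the smallest that 3 against 3 libraries allow is 0.1. With so few libraries these p-values do not show that the isozymes behaved alike with and without drug. For the pairs of PFKL with PFKM and PFKP the change was 0.51 and 0.49, given as a description only. Both changes carry PFKL sgRNA 908, at 2.23 in this comparison, which the minimum kept through its pralatrexate libraries. Without sgRNA 908 PFKL stood at 0 in pralatrexate against vehicle, so no p is given for these 2 pairs.

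Pralatrexate against baseline shares its baseline libraries with the first comparison and its day 10 libraries with the second, so it is given for completeness of the levels. PGK1 fell by 1.70 ± 0.94, to 30.7% of baseline (FDR 0.00990), PKM fell by 1.63 ± 0.49, to 32.2% (FDR 0.00197), and HK2 fell by 0.84 ± 0.31, to 55.7% (FDR 0.0212), on the log2 scale with SD over 4 sgRNAs. In all 3 of 9 genes were depleted and 0 enriched, where 7.34% of all genes were depleted and 0.262% enriched. Gene levels did not overlap with baseline for 5 lower and 2 higher members, where 25.6% of all genes were lower and 20.3% higher. The higher members were HK3 and PFKL. PFKL holds sgRNA 908, which the minimum kept through its pralatrexate libraries, so its lack of overlap is a description only. Of the 36 sgRNAs 14 were lower and none higher, where 13.1% of all sgRNAs were lower and 5.98% higher.

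The 14 were 4 of PKM, 3 each of PGK1, HK2 and PFKM, and 1 of PKLR. PGK1 sgRNA 921, called with vehicle, was not called here (FDR 0.0599). PFKM stood at -0.51 (FDR 0.147) and PFKL at 0.37 (enrichment FDR 0.983). Without sgRNA 908 PFKL stood at 0.08. The PGK1 call was lost without its strongest sgRNA (-1.32, FDR 0.0745), and the HK2 call without its strongest sgRNA (-0.74, FDR 0.0951), without baseline 2 (-0.83, FDR 0.0618) or without pralatrexate 3 (-0.84, FDR 0.0790). PFKL stood at 0.09 without pralatrexate 3. PKM was called in all 6 fits that left out 1 library.

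Other kinases that feed, branch from or regulate glycolysis showed no call. Of 39 such genes 0 were called in any of the 3 comparisons, where 7.47, 0.655 and 7.34% of all genes were depleted in vehicle against baseline, pralatrexate against vehicle and pralatrexate against baseline. In vehicle against baseline their median was 0.05, with 6 genes lower and 9 higher without overlap between groups, beside 24.4 and 19.5% of all genes. The pyruvate dehydrogenase kinases, which hold pyruvate back from the mitochondrial cycle, ran from 0.01 for PDK2 to 0.14 for PDK4. PCK1 and PCK2, which make phosphoenolpyruvate for the reverse route, stood at 0.00 and 0.17. Genes for the entry of other sugars ran from -0.37 for FGGY to 0.19 for XYLB, and subunits of glycogen phosphorylase kinase from -0.15 for PHKG2 to 0.28 for PHKG1. Subunits of AMPK, which senses low energy, and its activating kinase STK11 ran from -0.26 for PRKAG1 to 0.24 for PRKAB1.

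Some genes outside glycolysis followed the called members closely over the 9 libraries. The highest Pearson correlations of gene levels were 0.997 with COASY, 0.992 with CDC7 and 0.990 with DOLK for PGK1. For PKM they were 0.990 with EXOSC10, 0.987 with TP53RK and 0.987 with SEPHS2, and for HK2 0.993 with SEPHS2, 0.991 with GTF2H1 and 0.987 with PIP5K1A. All 8 genes were depleted with vehicle. These values describe 9 libraries in which baseline stands apart from day 10, so genes that dropped between them correlate with each other.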

How the data were processed

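sgRNA cassettes in genomic DNA of RH4 cells were sequenced in 9 libraries. The authors deposited raw counts of reads per sgRNA, not normalized. The aligner in the submitters' processing notes is Bowtie 1.0.0. How it was set and what counted the reads is not given in the sources used here. Gene tables by the authors with fold changes, scores and p-values for their own comparisons were not used. The count table had 0 further columns of per-sample values and holds no guide sequences, so positions are gene spans of GENCODE release 44 on GRCh38, not cut sites.

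sgRNAs with a mean under 30 reads were removed, which left 3145, 99 of them non-targeting. All 9 libraries entered 1 quasi-likelihood fit by group in edgeR 4.0.16 (R 4.3.3), scaled by TMM. The study's aggregation program was not installed, so robust rank aggregation was run on one-sided edgeR p-values under 0.25, with p-values from the exact distribution over distinct ranks and Benjamini-Hochberg adjustment over 763 genes (FDR threshold 0.05). The log2 fold changes of a gene's sgRNAs were averaged, and levels used a prior count of 2. The procedure was tested on simulated data. Alternatives used limma 3.58.1, DESeq2 1.42.0, other scaling, filters and aggregation, and fewer libraries.

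Members, lists, pairs and tests were chosen with earlier results of these data known. Named were all members, other isozymes of their steps, the 3 genes most correlated with each depleted member, and the lowest and highest of each related list, except 1 gene that is not reported here.

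Within groups, variance between libraries was 10.7 to 25.8 times that of sampling, so none was deposited again under another name. Deviations from group means of same-numbered vehicle and pralatrexate libraries correlated at 0.227, 0.252 and 0.199, so the numbers pair these groups, and the 6 day 10 libraries may not be independent. Same-numbered baseline and vehicle libraries correlated at 0.095 to 0.102, and baseline and pralatrexate libraries at 0.015 to 0.044, so those numbers were not taken as pairs. Selection before baseline is longer in the study's main text than in its methods or the labels, and the interval between baseline and day 10 is therefore not settled.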

Additional observations from a re-analysis of the deposited data

How the results depend on the processing

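PGK1 and PKM kept their calls against baseline under every alternative run, except PGK1 in pralatrexate against baseline without its strongest sgRNA. HK2 lost its call in vehicle against baseline under 6 alternatives and in pralatrexate against baseline under 3. One of the 6, a continuous in place of an exact null distribution of the score, was chosen after seeing the data (FDR 0.0532). With the replicate block, HK2 stood at -0.75 (FDR 0.0426) and PFKL in pralatrexate against vehicle at 0.56 (FDR 0.954), and the block changed no call of the 9 members. Over all genes, 57 in place of 56 were depleted with it in pralatrexate against baseline.

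Summed reads called 1 enriched member in vehicle against baseline (HK3, 0.20, adjusted p = 0.0052), and in pralatrexate against baseline 5 depleted members and 1 enriched (HK3, 0.16, adjusted p = 0.0301). Without the strongest sgRNA of each gene 1 member was depleted in pralatrexate against baseline. limma on gene means called 1 enriched member in pralatrexate against vehicle and 1 in pralatrexate against baseline, PFKL both times. Both calls include sgRNA 908, which the minimum kept through its pralatrexate libraries, and are a description only. The mean of the other PFKL sgRNAs stood at 0.00 and 0.08. Both tools called more of all genes, 151 and 157 in place of 57 depleted and 69 and 131 in place of 4 enriched with vehicle, and 152 and 162 in place of 56 and 75 and 133 in place of 2 with pralatrexate against baseline. Over all genes, enriched genes with vehicle numbered 2 with DESeq2, without baseline 1, without baseline 3 and without any 1 vehicle library. In pralatrexate against vehicle the 5 depleted genes became 2 without vehicle 2 and 3 without pralatrexate 2, and 1 gene in place of 0 was enriched with limma, with summed reads and without vehicle 1. In pralatrexate against baseline 7 genes were enriched without baseline 3 and 1 without pralatrexate 2.

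With vehicle or pralatrexate libraries alone (exact p = 0.1, the smallest possible) the changes of the pairs that had passed were 0.60 and 0.69 for HK1 minus HK2, -0.32 and -0.28 for HK1 minus HK3, -0.92 and -0.96 for HK2 minus HK3, -0.56 and -0.59 for PFKM minus PFKP, -1.43 and -1.58 for PKM minus PKLR, and -1.74 and -1.78 for PGK1 minus PGK2. PFKL minus PFKM crossed the threshold with a prior count of 10 (0.61), with medians over sgRNAs (0.49) and without vehicle 2. This pair carries sgRNA 908, which the minimum kept through its pralatrexate libraries, so these values are a description only and no p is given. Leaving out 1 library gave 0.61 to 0.68 for HK1 minus HK2, -0.32 to -0.26 for HK1 minus HK3, -0.98 to -0.90 for HK2 minus HK3, -0.60 to -0.52 for PFKM minus PFKP, -1.58 to -1.41 for PKM minus PKLR, -1.83 to -1.70 for PGK1 minus PGK2 and 0.52 to 0.73 for PFKL minus PFKM. Without a baseline library the smallest possible exact p is 0.0714, which the pairs that had passed reached.

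Scaling on the non-targeting sgRNAs shifted values against baseline by about the non-targeting median of 0.31. No called value changed sign under any alternative. The loss of each protein was not measured, and PFKL sgRNA 908, with 7 to 42 reads in its baseline and vehicle libraries, had the largest SE of the 36 sgRNAs.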
